A study of Mus musculus with 14 samples.

Results

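The liver burns fatty acids by beta-oxidation, and 31 genes of that pathway and its surroundings were read here for chromatin accessibility: 17 whose products work in mitochondria, 7 whose products work in peroxisomes, 6 whose products work elsewhere or in several places, and Dlec1, the neighbour of the peroxisomal gene Acaa1b. They were chosen by name from 21900 protein-coding genes of the annotation. An accessible interval, a window of fixed width in the deposited tables, was given to the gene that its midpoint lies in, or else to the nearest protein-coding gene within 50 kb. This gave 255 of 88203 intervals in the table for chow and 416 of 105801 in the table for the high-fat diet. All 31 genes had at least 1 interval in each table, and no interval was lost to the filter on low counts.

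Accessibility was measured by ATAC-seq, in which a transposase cuts and tags open DNA, in female mice, from nuclei of frozen liver pieces of 50 mg. The knockout mice (LKO) carried floxed matrin-3 alleles, the gene Matr3, with Cre recombinase under the albumin promoter, which is active in hepatocytes; the controls (flox) were littermates with the floxed alleles. There were 3 flox and 3 LKO mice on a normal chow diet and 4 flox and 4 LKO mice on a diet with 60% of its calories from fat (HFD), each from 7 weeks of age for 16 weeks. The mice on HFD were fasted for 12 hours before tissue collection; for the mice on chow no fast is stated. Bulk liver holds cells in which albumin-Cre is not active, and fewer cells of a type and less open chromatin per cell cannot be told apart. Each library is from a separate mouse.

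In beta-oxidation, a long-chain fatty acid is joined to coenzyme A, carried into the mitochondrion as a carnitine ester and shortened in turns of dehydrogenation, hydration, dehydrogenation and thiolytic cleavage; in the fasted liver much of the acetyl-CoA leaves as ketone bodies. Peroxisomes run a similar spiral on very long chains and other substrates that mitochondria handle poorly. Many of the genes of both spirals are targets of the fatty acid receptor PPAR-alpha, which binds DNA with RXR at a direct repeat of the hexamer AGGTCA with a base between the copies.

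The results turned on 5 genes, so the 250 bases before their annotated starts are shown: Dlec1 and Acaa1b because their intervals passed the test, Acot4 and Acot3 because all of their intervals lay lower on HFD, and Cpt1a because its number of intervals differed most between the tables. The sequences are from RefSeq on GRCm38.p6 (mm10), 5′ to 3′ on the strand of the gene, with any AGGTCA on either strand in capitals.
Dlec1 (chr9:119102259-119102508, plus strand): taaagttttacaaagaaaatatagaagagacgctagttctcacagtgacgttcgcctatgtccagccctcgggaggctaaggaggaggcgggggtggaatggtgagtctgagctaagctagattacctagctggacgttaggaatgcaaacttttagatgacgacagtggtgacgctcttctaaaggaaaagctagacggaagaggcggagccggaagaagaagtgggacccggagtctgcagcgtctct
Acaa1b (chr9:119157094-119157343, minus strand): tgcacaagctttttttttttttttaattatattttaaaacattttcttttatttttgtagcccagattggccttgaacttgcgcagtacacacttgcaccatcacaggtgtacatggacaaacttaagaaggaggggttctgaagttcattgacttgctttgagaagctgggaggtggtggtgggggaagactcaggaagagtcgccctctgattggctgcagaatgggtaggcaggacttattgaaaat
Acot4 (chr12:84038129-84038378, plus strand): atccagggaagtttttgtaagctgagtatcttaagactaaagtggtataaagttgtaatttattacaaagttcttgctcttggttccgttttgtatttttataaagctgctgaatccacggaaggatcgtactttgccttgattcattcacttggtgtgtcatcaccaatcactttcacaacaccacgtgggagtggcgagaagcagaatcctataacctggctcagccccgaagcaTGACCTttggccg
Acot3 (chr12:84051894-84052143, plus strand): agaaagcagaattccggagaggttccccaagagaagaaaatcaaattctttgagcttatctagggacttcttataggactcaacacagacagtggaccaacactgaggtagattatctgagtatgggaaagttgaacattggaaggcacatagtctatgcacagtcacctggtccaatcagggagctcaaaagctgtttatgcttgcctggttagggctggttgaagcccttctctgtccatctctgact
Cpt1a (chr19:3323051-3323300, plus strand): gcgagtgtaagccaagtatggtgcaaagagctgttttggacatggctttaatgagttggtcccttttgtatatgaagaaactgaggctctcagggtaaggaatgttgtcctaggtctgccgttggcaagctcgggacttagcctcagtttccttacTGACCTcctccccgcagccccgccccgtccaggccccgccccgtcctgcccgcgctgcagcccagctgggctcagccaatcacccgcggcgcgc
Of these 5 windows, those of Acot4 and Cpt1a held the hexamer, on the opposite strand, starting 13 and 94 bases before the start. Promoter windows were at hand for 28 of the members, and of their 33 windows 5 held it, 1 in each of Acadm, Acadvl, Acot4, Cpt1a and Creb3l3, against 14.02% of all 32851 windows of that length. The direct repeat, searched on both strands, lay in no member's window, either exact (0.0335% of all windows) or with 1 mismatch allowed (0.484% of all windows). A match is a description of the letters and not of binding.

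The intervals held 15531451 to 34981046 reads per library on chow and 7586621 to 10396084 on HFD, and the libraries numbered 2 of each chow group were the shallowest on chow. Levels are given in CPM, counts scaled to a common number of reads in intervals with factors from the trimmed mean of M values, and differences as log2 of LKO over flox with the standard error (SE); a CPM summed over a gene's intervals is scaled to the reads in gene-assigned intervals and depends on how many intervals the gene has, so sums are compared between mice and not between genes. A difference was called at a Benjamini-Hochberg adjusted p under 0.05 in edgeR's quasi-likelihood test, over all intervals or all genes of a table. The 7 intervals given to Matr3 ranged from -0.40 to 0.03 in log2 on chow and from -0.78 to 0.13 on HFD, with the lowest adjusted p at 0.228; the labels do not say which exons are floxed, so these intervals check nothing about the deletion. All 5 hepatocyte markers (Alb, Apoa1, Ttr, Serpina1a and Cyp2e1) had intervals in both tables.

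On HFD, the knockout livers differed from the floxed livers at 13 of the 416 member intervals, and all 13 were lower. Of these, 11 lay in Dlec1 and 2 in Acaa1b, and none lay at any other member. Without the neighbour Dlec1, the members had 2 called among 402 intervals. Among all intervals on HFD, 0.751% were called, 0.303% as lower and 0.448% as higher. At an unadjusted p under 0.05 the members had 81 intervals, where the background was 10.2% of all intervals. On summed counts, Dlec1 was the single member called, where 0.344% of all genes were. On chow no member interval and no member gene was called, where 0.0227% of all intervals and 0.0% of all genes were.

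**Figure D1:**
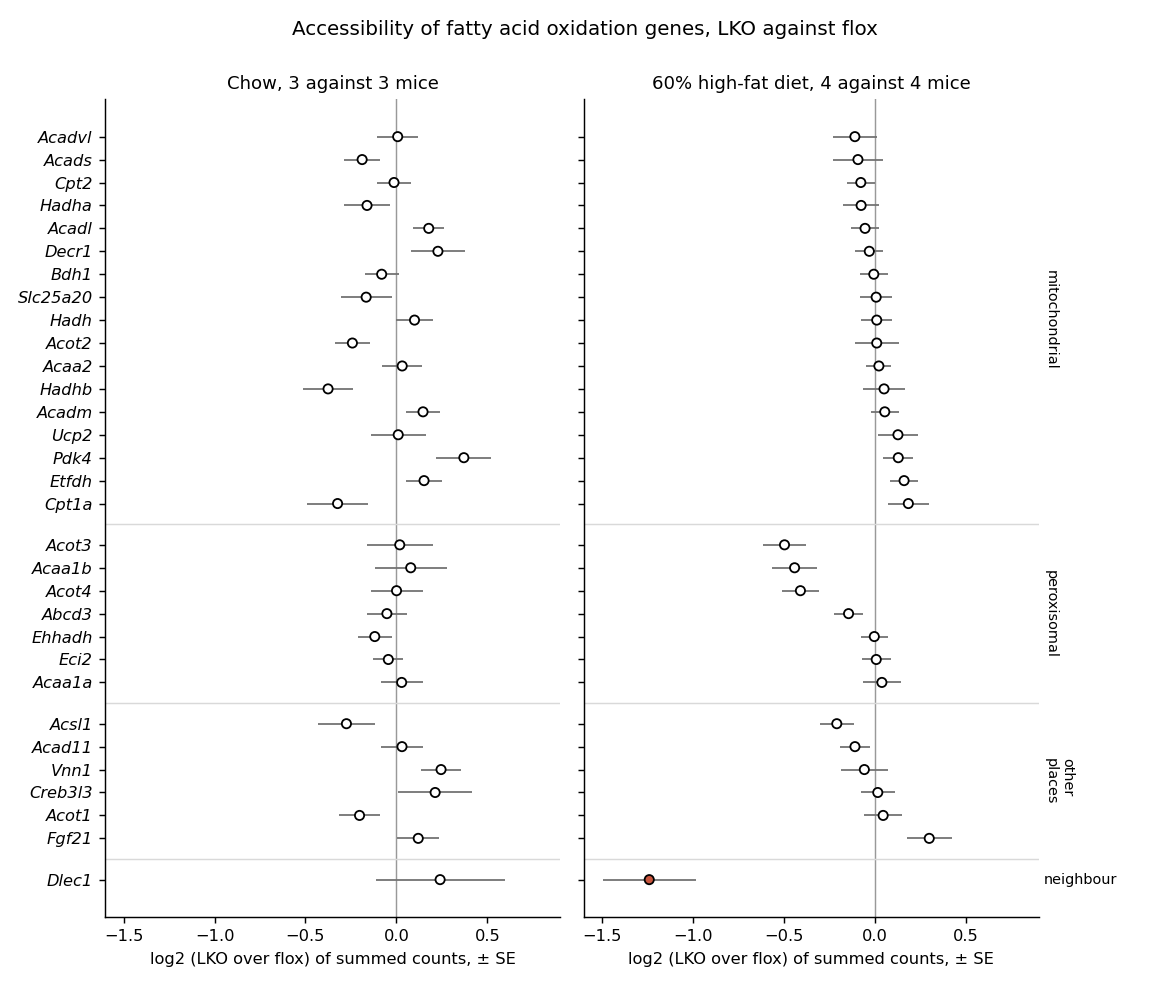
Difference between LKO and flox livers in the counts summed over each member's intervals, as log2 with SE (x axis), for each gene (y axis), on chow (left, 3 against 3 mice) and HFD (right, 4 against 4 mice); the filled point passed the test. Dlec1 on HFD, at -1.24, is the single filled point, and the open points of Acot3, Acaa1b and Acot4 on HFD lie at -0.50, -0.44 and -0.41.

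Dlec1 (chr9:119102444-119148246, plus strand, mm10), named for its deletion in lung and esophageal cancer, and Acaa1b (chr9:119148043-119157093, minus strand), a thiolase that cleaves 3-ketoacyl-CoA in peroxisomes, run toward each other and overlap by 204 bp at their 3′ ends. The called intervals lay in a run across both, from 119139258 to 119154728, a span of 15.5 kb. It began 36.7 kb into Dlec1 and ended 2.37 kb short of the Acaa1b start. The span held 19 intervals, 13 called and 6 not, and all 19 were lower in the knockout, from -1.93 to -0.60 in log2. The called ones ranged from -1.93 to -0.996, with adjusted p from 0.000331 to 0.0437 in edgeR.

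Summed over the 19 intervals, the floxed livers on HFD had 127, 224, 321 and 444 CPM in libraries 1 to 4, and the knockout livers had 115, 166, 93.5 and 80.8 CPM. The floxed mice thus differed widely among themselves, and the groups overlapped: flox 1 lay below LKO 2. The interval with the lowest adjusted p in Dlec1, at chr9:119141588-119142088 in the gene body, had 7.53, 14.3, 15.1 and 30.4 CPM in flox 1 to 4. In the knockout it had 4.61, 5.85, 3.79 and 3.28 CPM, so every knockout library lay below every floxed library. The means were 16.8 ± 9.67 and 4.38 ± 1.12 CPM (SD, n = 4 each), and edgeR gave a log2 difference of -1.93 (SE 0.28, adjusted p = 0.000331). This interval passed in each of the 8 fits that left out a library, between -2.17 and -1.47.

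In Acaa1b, the called interval with the lowest adjusted p lay at chr9:119154228-119154728 in the gene body, 2.62 kb from its start. It had 4.83, 6.63, 12.1 and 9.10 CPM in flox 1 to 4 and 2.58, 5.18, 3.26 and 1.26 CPM in LKO 1 to 4. The groups overlapped only through LKO 2, which lay above flox 1. The log2 difference was -1.39 (SE 0.30, adjusted p = 0.0186 in edgeR). Its adjusted p rose to 0.0548 without LKO 3, 0.101 without LKO 4, 0.0661 without flox 3 and 0.0892 without flox 4. The other called interval of Acaa1b, at chr9:119150695-119151195, had 5.17, 7.31, 10.4 and 13.9 CPM in flox and 2.90, 7.17, 2.09 and 2.27 CPM in LKO. Its log2 difference was -1.32 (SE 0.31, adjusted p = 0.0304 in edgeR). Acaa1b kept a called interval in DESeq2. In limma voom, and in edgeR without LKO 3, LKO 4 or flox 4, no interval of Acaa1b was called.

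Outside the span no interval of either gene was called. The start-site interval of Acaa1b had 13.04, 15.2, 16.1 and 15.1 CPM in flox and 13.2, 13.6, 14.1 and 14.1 CPM in LKO (log2 -0.11, SE 0.15, adjusted p = 0.872 in edgeR), and LKO lay within the range of flox. At the Dlec1 start the difference was 0.25 (SE 0.20, adjusted p = 0.739 in edgeR). The 7 intervals of both genes outside the span ranged from -0.51 to 0.25, with the lowest adjusted p at 0.540, and of the 10 neighbouring intervals on each side of the span none was called.

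Over the whole gene, Dlec1 had 113, 206, 277 and 396 summed CPM in flox 1 to 4 and 112, 142, 89.6 and 75.4 in LKO 1 to 4, where 1 knockout library, LKO 2, lay above flox 1. The log2 difference was -1.24 (SE 0.25, adjusted p = 0.0393 in edgeR), a mean 2.36-fold higher in flox. The call was lost when any of 4 libraries was left out: the adjusted p was 0.0749 without LKO 1, 0.153 without LKO 3, 0.189 without LKO 4 and 0.194 without flox 4, with log2 differences between -1.48 and -0.92 over the 8 fits. It was 0.118 in DESeq2 and 0.0786 in limma voom. Leaving out LKO 3, LKO 4 or flox 4 also took the number of called member intervals from 13 to 4, 4 and 3. Over all intervals these fits called 359, 304 and 326, where the main fit called 795.

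Acaa1b summed over its 12 intervals, 11 of them lower, had 106, 122.5, 137 and 149 CPM in flox and 76.6, 124, 87.7 and 90.4 CPM in LKO. LKO 2 lay within the floxed range and the other knockout libraries below it. The log2 difference of -0.44 (SE 0.12) did not pass (adjusted p = 0.155 in edgeR), and without LKO 2 it was -0.60 with an adjusted p of 0.0147. The close homologue Acaa1a (chr9:119341028-119350296), which encodes the other peroxisomal thiolase of the pair, had a log2 difference of 0.04 (SE 0.10, adjusted p = 0.942 in edgeR). The labels do not say how reads that fit both copies were placed, so the split between Acaa1a and Acaa1b is uncertain.

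**Figure D2:**
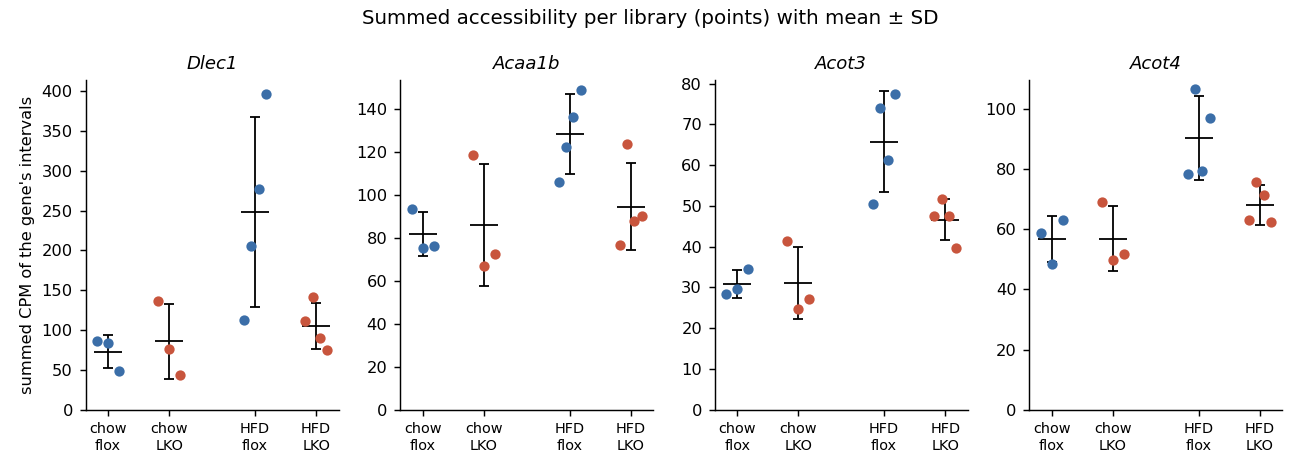
Summed CPM of the intervals of Dlec1, Acaa1b, Acot3 and Acot4 (y axis, separate scale for each gene, from 0) in every library (points), with the mean and SD of each group, for flox and LKO on chow and HFD. The floxed libraries on HFD spread from 113 to 396 for Dlec1, and the groups overlap for Dlec1, Acaa1b and Acot3.

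The hepatocyte markers moved in the same direction on HFD. Of the 120 intervals of the 5 marker genes, 30 were called lower and 1 higher, with a median log2 of -0.43; their summed level was 1623 to 2278 CPM in flox and 1006 to 1639 CPM in LKO. The Kupffer cell list (Clec4f, Adgre1, Cd5l, Vsig4 and Csf1r) had a median of 0.26 and no call among 18 intervals, with 81.7 to 125.5 CPM in flox and 106 to 125 CPM in LKO. The lists for endothelium, stellate cells and bile duct cells had medians from -0.04 to 0.17 and no call; Krt19, Krt7 and Dcn had no interval. The part of these shifts in the result at Dlec1 and Acaa1b was not tested.

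On chow no interval in the same stretch of Dlec1 and Acaa1b was called. The table for chow had 10 intervals in the span, 9 of them higher in LKO, from -0.15 to 0.48 in log2, with the lowest adjusted p at 0.815. Summed over them, flox 1 to 3 had 82.8, 78.5 and 43.5 CPM and LKO 1 to 3 had 138, 69.8 and 38.5 CPM, so that the knockout held both the highest and the lowest library. Summed over the gene, Dlec1 was at 0.24 (SE 0.35, adjusted p = 0.838 in edgeR) and Acaa1b at 0.08 (SE 0.20, adjusted p = 0.906 in edgeR); without LKO 1 both turned, to -0.28 and -0.22. The difference between the effects on HFD and on chow was -1.38 for Dlec1 (SE 0.46, unadjusted p = 0.00674), and it did not pass over all genes in edgeR (adjusted p = 0.477). For Acaa1b it was -0.25 (SE 0.21, adjusted p = 0.868 in edgeR). Each difference between diets given here used only intervals matched between the diets. Neither called interval of Acaa1b was among them, nor was the Dlec1 interval with the lowest adjusted p. These differences therefore did not test the loss at those intervals. The stated fast, the read depth and the separate tables went with diet, so their parts in a difference between diets cannot be told apart. This holds for every difference between diets given here.

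Acot3 and Acot4, thioesterases that release free fatty acids from acyl-CoA in peroxisomes, sit in a cluster on chromosome 12 with Acot2, the mitochondrial enzyme, and Acot1, the cytosolic one. On HFD all 6 intervals of Acot3 (chr12:84052144-84060400) and all 8 of Acot4 (chr12:84037254-84044723) had lower means in the knockout, and none was called. Acot3 summed to 50.5, 74.0, 61.2 and 77.4 CPM in flox and 47.6, 51.7, 47.5 and 39.6 CPM in LKO. LKO 2 lay just above flox 1, and every other knockout library lay below all of flox. The log2 difference was -0.50 (SE 0.12, adjusted p = 0.0886 in edgeR). Acot4 summed to 78.3, 107, 79.5 and 97.1 CPM in flox and 63.0, 75.9, 71.4 and 62.3 CPM in LKO, so that its groups did not overlap. Its log2 difference was -0.41 (SE 0.10, adjusted p = 0.1005 in edgeR).

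Neither Acot3 nor Acot4 therefore passed in edgeR, and both lay near the threshold: in DESeq2 the adjusted p was 0.0291 for Acot3 and 0.0498 for Acot4. Leaving out 1 library moved the adjusted p from 0.0204 (without flox 1) to 0.317 (without flox 4) for Acot3, and from 0.0239 (without flox 3) to 0.319 (without flox 4) for Acot4. Acot1 and Acot2, in the same cluster, were at 0.05 (SE 0.10) and 0.01 (SE 0.12) on HFD, with 3 of 6 and 1 of 2 intervals lower. On chow Acot3 and Acot4 were at 0.02 (SE 0.18) and 0.00 (SE 0.14), and Acot1 was at -0.20 (SE 0.11). The difference between diets was -0.48 for Acot3 (SE 0.21, unadjusted p = 0.0347, adjusted p = 0.698 in edgeR) and -0.37 for Acot4 (SE 0.18, adjusted p = 0.744 in edgeR). These 4 genes are near copies of one another, so the same doubt on read placement holds for them.

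**Figure D3:**
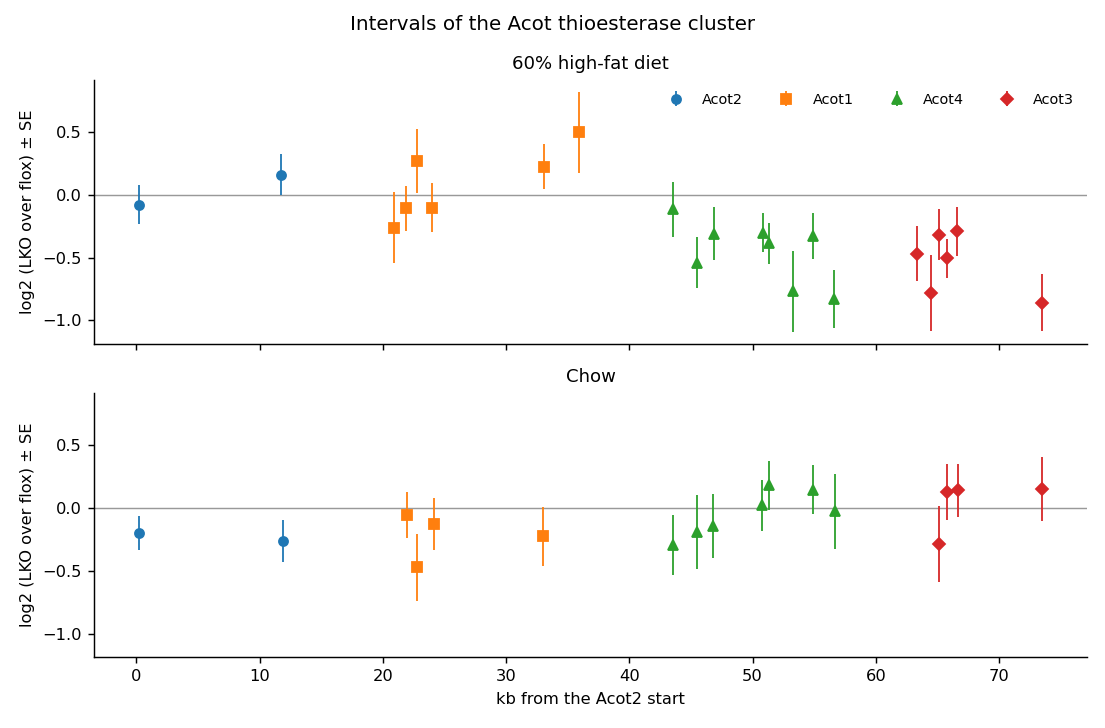
Log2 difference between LKO and flox with SE (y axis) for every interval of Acot2, Acot1, Acot4 and Acot3 against the distance from the Acot2 start (x axis, kb), on HFD (top) and chow (bottom). On HFD the 8 points of Acot4 and the 6 of Acot3 lie below 0, while Acot2 and Acot1 lie on both sides, and on chow Acot4 and Acot3 lie on both sides and Acot2 and Acot1 below 0.

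No other peroxisomal member was called in either diet. Ehhadh, the enzyme that hydrates and dehydrogenates in the peroxisome, was at -0.12 (SE 0.09) on chow and -0.00 (SE 0.07) on HFD. Eci2, an enoyl-CoA isomerase, was at -0.04 (SE 0.08) and 0.01 (SE 0.08), and Acaa1a was at 0.03 (SE 0.12) on chow. Abcd3, a transporter of the peroxisomal membrane, was at -0.05 (SE 0.11) on chow; on HFD 22 of its 27 intervals were lower and the sum was at -0.15 (SE 0.08, adjusted p = 0.573 in edgeR).

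As a list, the 7 peroxisomal genes had a median log2 of -0.15 on HFD, 2 above 0 and 5 below. Without Acaa1b the median was -0.07. Of their 92 intervals 66 were lower, with 2 called. Over all intervals on HFD, 53561 of 105801 were lower and 0.751% were called. The lower ones of the list included 22 in Abcd3, 11 in Acaa1b, 8 in Acot4 and 6 in Acot3. In Ehhadh 5 of 11 intervals were lower, in Acaa1a 4 of 10 and in Eci2 10 of 18. The 17 mitochondrial genes had a median of 0.01 on HFD, 10 above 0 and 7 below, with none called among genes or their 222 intervals. The median over all genes was -0.00. On chow the medians were 0.01 for the mitochondrial genes, 0.00 for the peroxisomal genes and -0.01 for all genes. These are descriptions of genes chosen by name; the lists were not tested against each other. With Dlec1, Acaa1b, Acot3 and Acot4 set aside, none of the other 27 members had a call on HFD. The sums of those 27 ranged from -0.21 to 0.30, with the lowest adjusted p at 0.402. The genes set aside had the lowest log2 differences of the members on HFD and held all the calls. The narrower range and the lack of calls therefore follow from their removal.

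Of the genes for entry into the mitochondrion, Cpt1a (chr19:3322326-3385735), which makes the acylcarnitine in the rate-controlling step, differed most in how many intervals it had: 16 in the table for chow and 88 in that for HFD. That is a ratio of 5.5, where the median ratio was 1.5 over the 31 members and 1.0 over the 15515 genes with intervals in both tables; 24 of those genes had a ratio at least as large. In all 24 members had more intervals on HFD, 2 had fewer and 5 had equal numbers. The tables were made separately and diet itself was not tested.

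Within each diet, Cpt1a lay on different sides of 0. On HFD 80 of its 88 intervals were higher in the knockout, and the sums were 850.5, 1003, 749 and 872 CPM in flox and 1077, 1102, 801 and 965 CPM in LKO. The groups overlapped, since flox 2 lay above LKO 3 and LKO 4, and the log2 difference was 0.18 (SE 0.11, adjusted p = 0.638 in edgeR). On chow all 16 intervals were lower, and the sums were 184, 120.0 and 154 CPM in flox and 137, 131 and 98.9 CPM in LKO (log2 -0.32, SE 0.17, adjusted p = 0.718 in edgeR). With 1 library left out, the value on chow ranged from -0.47 (without flox 2) to -0.17 (without flox 1), and it was -0.19 without LKO 3. The difference between the diets was 0.43 (SE 0.20, unadjusted p = 0.0419, adjusted p = 0.726 in edgeR).

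The lowest adjusted p of Cpt1a on HFD, 0.0589 in edgeR, was that of an interval in the gene body 44.0 kb from the start, singled out after its values were seen. It had 4.72, 5.85, 3.64 and 4.26 CPM in flox and 8.05, 8.60, 7.18 and 9.22 CPM in LKO, a log2 difference of 0.83 (SE 0.21), and the groups did not overlap. At the Cpt1a start the interval had means of 29.9 and 30.0 CPM on HFD (log2 0.01).

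**Figure D4:**
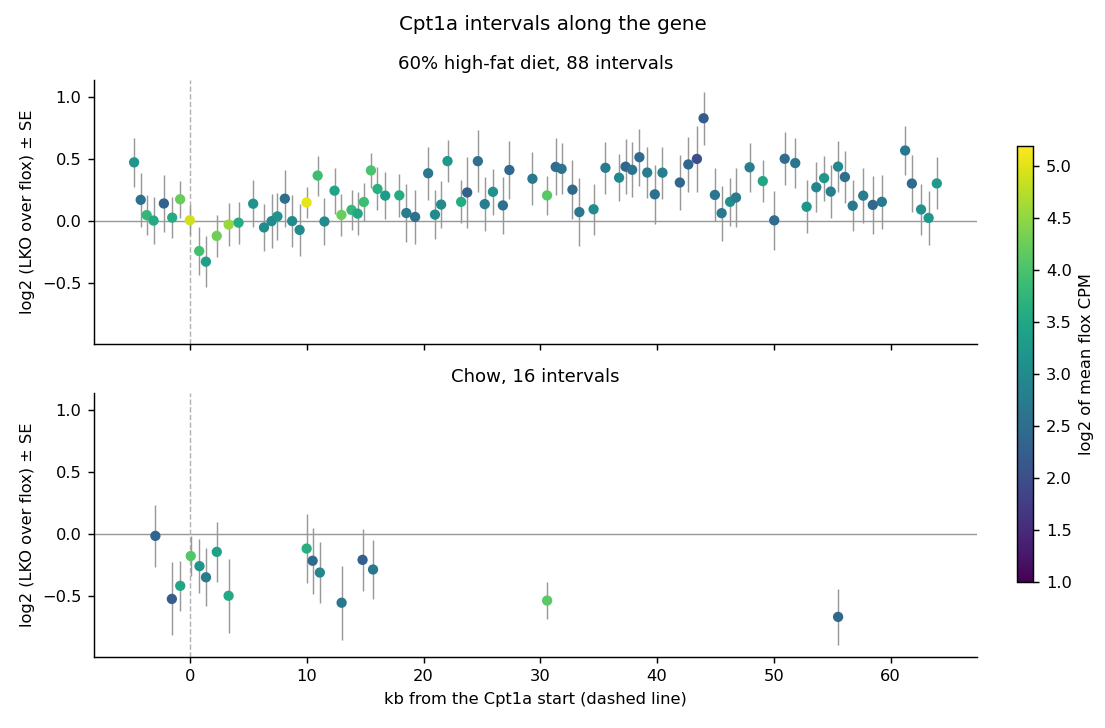
Log2 difference between LKO and flox with SE (y axis) for each Cpt1a interval by its distance from the start (x axis, kb), on HFD (top, 88 intervals) and chow (bottom, 16 intervals); the colour is log2 of the mean CPM in flox. On HFD 80 points lie above 0 and on chow all 16 lie below, and none of them passed the test.

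The other genes of entry and activation did not pass. Slc25a20, the carnitine-acylcarnitine exchanger, was at -0.17 (SE 0.14) on chow and 0.01 (SE 0.09) on HFD, and Cpt2, which returns the acyl group to coenzyme A, at -0.01 (SE 0.09) and -0.08 (SE 0.08). Acsl1, the acyl-CoA synthetase that activates long-chain fatty acids, had 44 of 50 intervals lower on chow and 44 of 51 lower on HFD, none called. On chow it summed to 758, 538 and 771 CPM in flox and 655, 533 and 520.1 CPM in LKO (log2 -0.27, SE 0.16, adjusted p = 0.718 in edgeR). On HFD it summed to 508, 605, 600 and 616 CPM in flox and 488, 590, 464 and 471 CPM in LKO (log2 -0.21, SE 0.09, adjusted p = 0.467 in edgeR). On HFD the LKO 2 library lay among the floxed ones and the other knockout libraries lay below flox 1.

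In the mitochondrial spiral itself, no gene was called. The acyl-CoA dehydrogenases that open each turn, for very long, long, medium and short chains, were Acadvl at -0.11 (SE 0.12), Acadl at -0.05 (SE 0.08), Acadm at 0.05 (SE 0.08) and Acads at -0.09 (SE 0.14) on HFD. On chow Acadvl was at 0.01 (SE 0.11), Acadl at 0.18 (SE 0.09), Acadm at 0.15 (SE 0.09) and Acads at -0.19 (SE 0.10). Etfdh, which passes the electrons of these enzymes to ubiquinone, had a single interval, at its start, with log2 0.15 (SE 0.10) on chow and 0.16 (SE 0.08) on HFD. The floxed libraries on HFD had 57.3, 62.0, 70.4 and 61.7 CPM there and the knockout libraries 69.7, 71.4, 69.3 and 70.2 CPM, so flox 3 lay within the knockout range (adjusted p = 0.504 in edgeR).

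The trifunctional protein, which carries out the later steps on long chains, is made of the subunits Hadha and Hadhb, whose genes share a promoter region and run in opposite directions. Hadhb on chow had 26.4, 21.5 and 28.8 CPM in flox and 21.1, 18.0 and 19.997 CPM in LKO, where all of LKO lay below flox 2, the lowest floxed library. The log2 difference was -0.38 (SE 0.14, adjusted p = 0.718 in edgeR), and -0.13 with intervals inside the gene alone. On HFD it was 0.05 (SE 0.12). Hadha was at -0.16 (SE 0.13) and -0.08 (SE 0.10). Hadh, the dehydrogenase for shorter chains, was at 0.10 (SE 0.10) and 0.01 (SE 0.09), and Acaa2, the mitochondrial thiolase, at 0.03 (SE 0.11) and 0.02 (SE 0.07). Decr1, the reductase needed for unsaturated chains, had all 8 intervals higher on chow (log2 0.23, SE 0.15) and 7 of 14 higher on HFD (log2 -0.03, SE 0.08).

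Acot2 on chow had 33.5, 32.1 and 33.4 CPM in flox and 27.9, 29.9 and 26.1 CPM in LKO, without overlap, at a log2 difference of -0.24 (SE 0.10, adjusted p = 0.718 in edgeR). Bdh1, the dehydrogenase that makes beta-hydroxybutyrate in the last step of ketogenesis, was at -0.08 (SE 0.09) on chow and -0.01 (SE 0.08) on HFD, with intervals on both sides of 0 in both tables.

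Among the genes that respond to fasting, Pdk4, the kinase that shuts down pyruvate dehydrogenase, had all 10 intervals higher in the knockout on chow. It summed to 126, 107 and 152 CPM in flox and 160, 141 and 196 CPM in LKO, and LKO 2 lay below flox 3. Each LKO library lay above the flox library of the same number, as it also did on chow for other members such as Decr1 and Vnn1. The numbers are not shown to mark pairs. The log2 difference was 0.37 (SE 0.15, adjusted p = 0.718 in edgeR) and, with the replicate number as a block, 0.37 (SE 0.063, adjusted p = 0.0663 in edgeR), which did not pass either. With 1 library left out it ranged from 0.23 (without LKO 3) to 0.51 (without flox 3). On HFD it was 0.13 (SE 0.08, adjusted p = 0.661 in edgeR), and 0.065 (without flox 2) to 0.21 (without flox 3) with 1 library left out. Fgf21, the hormone that the liver releases on fasting, had 44.3, 54.4, 50.9 and 49.9 CPM in flox and 48.4, 61.8, 54.6 and 81.2 CPM in LKO on HFD. Its highest library was LKO 4: the log2 difference was 0.30 (SE 0.12, adjusted p = 0.402 in edgeR) with it and 0.14 without it. On chow Fgf21 was at 0.12 (SE 0.12). Vnn1, a pantetheinase, had 34.3, 30.5 and 28.9 CPM in flox and 40.3, 34.2 and 36.4 CPM in LKO on chow, where LKO 2 lay just below flox 1 (log2 0.25, SE 0.11, adjusted p = 0.718 in edgeR). On HFD it was at -0.06 (SE 0.13).

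The last members were not called either. On HFD these were Creb3l3, a liver transcription factor of the endoplasmic reticulum, at 0.02 (SE 0.09); Ucp2, a carrier of the inner mitochondrial membrane, at 0.13 (SE 0.11); Acad11, an acyl-CoA dehydrogenase family member, at -0.11 (SE 0.08). On chow they were at 0.21 (SE 0.20), 0.01 (SE 0.15) and 0.03 (SE 0.12).

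The 4 members with an unadjusted p under 0.05 on chow were thus Hadhb, Acot2, Pdk4 and Vnn1, where 6.56% of all genes had such a p. On chow 27 of the 255 member intervals had an unadjusted p under 0.05, where 6.77% of all intervals did, and of these 12 were in Acsl1 and 5 in Pdk4. DESeq2 called 1 member interval on chow, in Acsl1, and limma voom 1, in Cpt1a. Over all intervals on chow they called 544 and 677, where edgeR called 20. For the difference between diets, edgeR called 0 of 31 member genes (0.0328% of all genes) and 0 of 213 matched member intervals (0.183% of all), while 3 genes and 23 intervals had an unadjusted p under 0.05 (6.76% and 7.44% of all).

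The most accessible interval lay at the start site in 20 of the 31 members on chow and 22 on HFD. Start sites were placed only for the 28 members with a promoter window, so Acaa2, Decr1 and Vnn1 could not count. The strongest start site was that of Acadm, with 82.0 CPM in flox and 93.0 CPM in LKO on chow and 61.6 and 63.8 CPM on HFD. All of the 28 start-site intervals on chow and 29 on HFD were without a call, with median log2 of 0.04 and -0.01. Over all genes, 0 of 9794 start-site intervals on chow and 12 of 10142 on HFD were called.

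A list of 40 further genes of fatty acid oxidation and its control gave 9 higher and 2 lower intervals on HFD among 784, and none on chow among 539, where the shares of all intervals were 0.448% higher and 0.303% lower on HFD and 0.0227% called on chow; no gene of it was called on summed counts. Scp2, the peroxisomal sterol carrier protein and thiolase, held 8 of the higher ones, all between 0.92 and 1.30 in log2 and all in the gene body. It summed to 513, 612, 547 and 544 CPM in flox and 691, 836, 664 and 980 CPM in LKO, without overlap, at 0.52 (SE 0.11, adjusted p = 0.0575 in edgeR). The ninth lay in Phyh, which starts the alpha-oxidation of phytanic acid in peroxisomes, with 7.18 ± 1.74 CPM in flox and 14.8 ± 3.70 CPM in LKO (SD, n = 4; log2 1.05, SE 0.20, adjusted p = 0.00621 in edgeR). Both lower ones lay in Ppara, the gene of PPAR-alpha, at -0.83 (SE 0.21, adjusted p = 0.0496) and -1.15 (SE 0.25, adjusted p = 0.0186) in edgeR. Over all 108 intervals of Ppara, 90 were lower and the sum was at -0.30 (SE 0.13, adjusted p = 0.456 in edgeR). Peroxisomal genes thus had called intervals on both sides of 0 on HFD, higher at Scp2 and Phyh and lower at Acaa1b. On chow the largest difference of the list was that of Hacl1, with all 35 intervals lower and none called. Hacl1 summed to 346, 213 and 552 CPM in flox and 187, 134 and 112 CPM in LKO, without overlap. The log2 difference was -1.36 (SE 0.31, adjusted p = 0.718 in edgeR) on chow and -0.05 (SE 0.10) on HFD.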

How the data were processed

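The authors deposited tables of read counts per interval, 1 table for chow and 1 for HFD. Per the submitters' processing notes, the tools included bedtools, MACS2 (2.2.7.1), Bowtie2 (2.4.2) and Trim Galore (0.6.7), and the build was mm10. No source used here gives the parameters, duplicate removal, any shift of the cut sites or the treatment of reads with several matches. Per the file headers, columns of the table for HFD name single samples, while those for chow name a genotype and number and were used by group; 0 columns of values went unused. The 31 members and all lists were chosen with earlier results of these data known.

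Counts were tested as deposited with edgeR 4.0.16 (R 4.3.3; TMM, filterByExpr, quasi-likelihood F-test, two-sided), without covariates, within each diet and, for the difference between diets, on 73945 intervals matched by at least 50% overlap. Intervals inside several genes (1061 on chow, 1292 on HFD) went to the shortest gene. Alternatives were DESeq2 1.42.0, limma 3.58.1 (voom with quality weights), other scalings, no filter, narrower assignment and leaving out libraries; the fits were tested on simulated data. Described by library were members that passed in either diet, the members with called intervals, the 6 members of largest change per diet with a mean of at least 5 CPM, and always Acaa1b and Dlec1; for other members ranges or sums are given. The deviations of same-numbered flox and LKO columns on chow correlated at r from 0.191 to 0.535. Those of differently numbered columns ranged from -0.381 to 0.279, the highest for flox 3 with LKO 1. Only the columns numbered 2, at 0.535, lay above that range, so these values do not show that the other numbers mark pairs. The main test did not use the numbers. The replicate block, an alternative that took them as pairs, changed no member's call on chow. Over all it called 126 intervals in place of 20 and 9 genes in place of 0. No pair of libraries agreed within sampling noise (lowest chi-square per degree of freedom 2.49). The result of a further list of cell markers is not reported here.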

Additional observations from a re-analysis of the deposited data

Results flagged for a closer look

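In 88 groups of 4 libraries on HFD, 4 had a library far from the other 3 by Dixon's test; chance gives about 1 in 20. Acadm summed to 125 CPM in flox 2, where the next floxed library had 139 CPM. Ehhadh summed to 76.5 CPM in flox 1, where the next had 88.8 CPM. Acsl1 summed to 508 CPM in flox 1, where the next had 599.7 CPM. The called Acaa1b interval at chr9:119150695-119151195 had 7.17 CPM in LKO 2, where the next knockout library had 2.90 CPM.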

How the results depend on the processing

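Scaling by DESeq2's size factors or by library totals changed none of the counts of called members. Library totals for the difference between diets were added after seeing the data. The fits without the filter on low counts repeat the main fits, since the filter had removed nothing. A narrower assignment changed no count of called genes. It could not change the counts of called intervals, since only sums were refitted and the called intervals lie inside genes. On HFD the 13 called member intervals became 5 in DESeq2 (4 lower and 1 higher, the last in Cpt1a) and 3 in limma voom, all in Dlec1. The number of called member intervals was 3 to 18 when a library was left out. Over all intervals on HFD the main fit called 795, DESeq2 829 and limma voom 656, and 304 to 1189 were called when a library was left out. The 1 called member gene became 2 in DESeq2 (Acot3 and Acot4) and 0 in limma voom, and 0 to 3 when a library was left out. Over all genes on HFD the main fit called 56, DESeq2 124 and limma voom 81, and 17 to 196 were called when a library was left out. On chow the 0 called member intervals became 1 in DESeq2, 1 in limma voom, 1 without both libraries numbered 2, and 0 to 3 when a library was left out. Over all intervals on chow these fits called 544, 677, 333, and 0 to 604, where the main fit called 20. For the difference between diets, 0 called member intervals became 1 in limma voom and 0 to 2 when a library was left out. Over all matched intervals limma voom called 497 and the fits with a library left out 82 to 370, where the main fit called 135. The median of the peroxisomal genes on chow ranged from -0.16 (without LKO 1) to 0.084, and that of the mitochondrial genes on HFD was -0.068 with intervals inside genes alone. The causes were not tested.

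On HFD, same-numbered libraries correlated between -0.0117 and 0.178 and share only a number. With the replicate number as a block there, 17 member intervals and 4 member genes (Acaa1b, Acot3, Acot4 and Dlec1) were called. Over all, that fit called 1420 of 105801 intervals and 351 of 16280 genes, where the main fit called 795 and 56. On chow the replicate block turned Acot3 to -0.0037 and Acot4 to -0.0081 in log2.

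Of the alternatives for single genes and intervals, 329 kept direction and side of the threshold, 9 passed newly, 11 no longer passed and 22 changed sign, the last all for genes without a call in that diet. The 329 include the fits without the filter, which repeat the main fits. On chow, intervals inside genes alone gave -4.76e-05 for Acot3, within 10 kb gave -0.0022 for Acot4, and leaving out both libraries numbered 2 gave -0.015 for Acot4. On HFD, intervals inside genes alone gave -0.053 for Hadhb and 0.19 for Vnn1. With a library left out, log2 on chow ranged from -0.22 to 0.23 for Acaa1b, -0.24 to 0.15 for Acot3, -0.16 to 0.085 for Acot4 and -0.28 to 0.56 for Dlec1, and on HFD from -0.070 to 0.12 for Acot2, -0.035 to 0.14 for Hadhb and -0.15 to 0.058 for Vnn1.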
